A study of Mus musculus with 9 samples.

Results

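The comparison described here is that of 4T1 cells carrying the hairpin shYap-2 with 4T1 cells carrying a control hairpin (shCTRL), by RNA-seq, in 3 libraries a group. A gene was included when its FPKM, the fragment count scaled by transcript length in kilobases and by M mapped fragments, was at least 1 in 3 or more of these 6 libraries. That rule kept 10615 of the 16358 genes listed for this hairpin, of 16962 genes in the whole series, and 10593 of the 10615 are annotated as protein coding. The series holds 9 libraries of poly(A)-selected RNA in 3 groups, the third with another Yap hairpin, shYap-1. 4T1 cells are a line of mammary carcinoma from the BALB/c mouse strain. The shCTRL samples are labelled WT and Negative control, and the shYap-2 samples carry the label Knock down Yap. No agent, time after hairpin delivery or selection is given, nor whether replicates were separate cultures or 1 transduced pool, so p-values measure only the spread between these libraries.

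YAP, the product of Yap1, is a transcriptional co-activator that binds DNA through TEAD factors. The Hippo kinases phosphorylate YAP and its paralog TAZ (Wwtr1) and keep them in the cytoplasm, and when the cascade is off both drive genes of matrix, adhesion and growth. In mammary carcinoma YAP is known for supporting proliferation and invasion.

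The targeted gene was measured first. Yap1 stood at 49.3, 48.3 and 48.8 FPKM with shCTRL and 11.04, 10.4 and 9.79 with shYap-2. The knockdown libraries lay far below all controls, with a log2 fold change of -2.13 (SE 0.0496, adjusted p = 4.26e-09). All fold changes were taken on log2(FPKM + 1), so those of low genes are understated, and adjusted p-values are limma's with Benjamini-Hochberg adjustment over all 10615 genes. The smallest p an exact permutation of 3 libraries against 3 could give is 0.1, so the smaller values rest on the model. Wwtr1 had 31.97, 32.3 and 33.02 FPKM with shCTRL and 27.8, 27.03 and 27.0 with shYap-2, and its groups did not overlap either, at -0.24 (SE 0.0381, adjusted p = 0.000342).

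The libraries were of similar depth, an estimated 22.15 to 24.4 M fragments for shCTRL and 21.85 to 27.5 M for shYap-2. All 12 epithelial carcinoma markers passed the filter, with a summed level of 2408 to 2559 FPKM in shCTRL and 2937 to 3003 FPKM with shYap-2. Of 14 leukocyte markers, 10 were listed and 1 passed (Cd14, not called), and their sum was 5.25 to 5.60 FPKM in shCTRL and 5.28 to 5.68 with shYap-2. Of 12 fibroblast and endothelial markers 1 passed, Pdgfra, which fell by 0.60, and their sum was 4.39 to 4.63 FPKM against 2.48 to 3.34. In bulk RNA, fewer cells of a kind and less RNA per cell cannot be told apart.

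Most measured genes differed between the groups, usually by little. With shYap-2, 4586 genes (43.2%) were higher and 3237 (30.5%) lower at an adjusted p under 0.05, or 7823 (73.7%) in all, and 2792 were not called. Counts within gene lists below are to be read beside these shares. Some genes are in more than 1 list, so the counts of different lists are not separate observations. Of these calls, 56.4% had a log2 fold change under 0.5 in size, and the median SE was 0.062. The median log2 fold change was 0.08 over all tested genes, 0.49 over the genes that rose and -0.41 over those that fell. At a log2 fold change of at least 1, 659 genes (6.21%) rose and 225 (2.12%) fell, and at 2 or more the counts were 85 and 24. The replicate values did not overlap, with shYap-2 above, in 4746 genes (44.7%), and with shYap-2 below in 3380 (31.8%). Leaving out each library in turn, 3863 of the rises and 2746 of the falls were called every time.

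**Figure D1:**
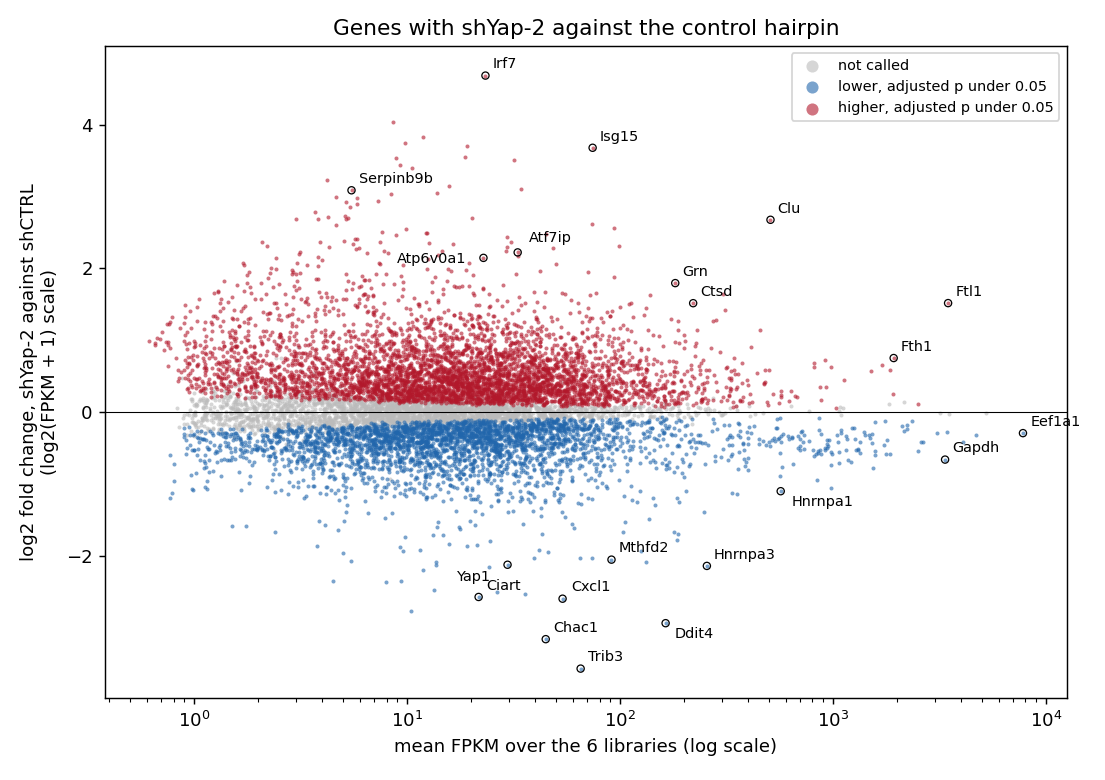
Log2 fold change with shYap-2 (vertical, log2(FPKM + 1) scale) against mean FPKM over the 6 libraries (horizontal, log scale) for 10615 genes, with genes called higher in red, lower in blue and not called in grey. The named points run from Irf7 at 4.69 to Trib3 at -3.58. Among the most abundant called genes, Eef1a1 (-0.29) and Gapdh (-0.66) lie below 0 and Ftl1 (1.52) above it.

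Genes that YAP is known to switch on were mostly lower. Of 22 listed YAP/TAZ targets 17 were tested, of which 13 fell, 1 rose and 3 were not called, with a median of -0.72 beside 0.08 over all genes. Ccn1, which encodes a matricellular protein, had 116, 119.8 and 121 FPKM with shCTRL and 27.7, 28.9 and 28.4 with shYap-2. All 3 knockdown libraries were well below the controls (-2.03, SE 0.0356, adjusted p = 1.45e-09). Ajuba, whose LIM protein binds LATS kinases, had 64.3, 64.9 and 64.03 FPKM with shCTRL and 39.8, 37.6 and 38.5 with shYap-2. The groups were again apart, at -0.72. Axl was the member that rose, by 0.53, and Arhgef17 (0.11), Crim1 (0.05) and Nuak2 (-0.01) were not called.

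The pathway's own genes went both ways within each role described here. Of 28 pathway genes 8 rose and 15 fell (median -0.14). Amotl2, Lats2, Ajuba and Ptpn14 are among the falls here and also among those of the target list. Among the DNA-binding partners, Tead1 had 43.4, 42.6 and 41.4 FPKM with shCTRL and 22.97, 22.6 and 21.4 with shYap-2. Its groups were separate, at -0.90, whereas Tead2 and Tead3 were higher by 0.36 and 0.35, calls that ended with the GC trend removed (0.12 each), and Tead4 by 0.19, which turned to -0.047 there. Vgll4, which encodes a competitor of YAP for TEAD, was higher by 0.76. Of the kinase genes, Stk4 was higher by 0.64 while Lats1 and Lats2 were lower (-0.21 and -0.74), the Lats1 call ending with all 9 libraries in 1 fit. The scaffold and adaptor genes Sav1, Wwc1 and Amotl2 were lower (-0.48, -0.61 and -1.20), and Amot, whose product also binds YAP, was higher (1.37).

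The promoters of 4 genes are printed for the element each group's known regulator binds: Ccn1 for TEAD, Isg15 for the interferon-activated factors, Chac1 for ATF4 and Ctsd for the MiT/TFE factors. The sequences are RefSeq's, GRCm38.p6, from 250 bases before to 50 after the start of the gene, 5′ to 3′ on the gene's strand, with matches in capitals. Ccn1 is at chr3:145649936-145650235 (minus strand), Isg15 at chr4:156200769-156201068 (minus), Chac1 at chr2:119350992-119351291 (plus) and Ctsd at chr7:142387778-142388077 (minus).
Ccn1: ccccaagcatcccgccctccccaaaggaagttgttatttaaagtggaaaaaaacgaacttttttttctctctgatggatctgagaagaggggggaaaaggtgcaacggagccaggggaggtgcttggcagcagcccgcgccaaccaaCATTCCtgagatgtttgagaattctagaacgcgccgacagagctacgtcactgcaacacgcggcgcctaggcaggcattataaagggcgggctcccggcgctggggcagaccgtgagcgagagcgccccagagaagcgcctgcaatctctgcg
Isg15: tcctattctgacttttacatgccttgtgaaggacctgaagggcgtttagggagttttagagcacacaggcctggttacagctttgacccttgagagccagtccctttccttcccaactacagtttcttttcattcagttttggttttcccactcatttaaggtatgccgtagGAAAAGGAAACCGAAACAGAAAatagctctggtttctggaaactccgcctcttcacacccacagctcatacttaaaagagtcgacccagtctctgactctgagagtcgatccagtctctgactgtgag
Chac1: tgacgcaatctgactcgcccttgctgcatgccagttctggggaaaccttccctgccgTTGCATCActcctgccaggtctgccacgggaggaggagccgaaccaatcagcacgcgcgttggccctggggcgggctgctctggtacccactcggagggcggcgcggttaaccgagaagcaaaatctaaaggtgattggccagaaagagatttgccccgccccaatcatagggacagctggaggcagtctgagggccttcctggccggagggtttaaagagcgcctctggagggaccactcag
Ctsd: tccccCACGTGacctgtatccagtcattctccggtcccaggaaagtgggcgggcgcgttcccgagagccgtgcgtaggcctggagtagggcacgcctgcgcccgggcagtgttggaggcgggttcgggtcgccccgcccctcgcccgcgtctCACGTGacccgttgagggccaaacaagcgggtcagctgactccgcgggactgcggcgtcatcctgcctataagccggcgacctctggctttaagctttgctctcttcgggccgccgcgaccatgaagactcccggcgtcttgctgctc
Matches were sought on both strands, so CATTCC in Ccn1 and TTGCATCA in Chac1 are reverse complements of the letters searched. The 3 matches in Isg15 overlap one another, and none of the capitals belongs to another of the 4 motifs. Of the 10615 tested genes 8452 had a promoter in the RefSeq table. GGAATG, the TEAD letters, occurred in 14.02% of those promoters and in 8 of the 12 found for the YAP/TAZ targets (66.7%). GAAA, any 2 letters and GAAA, for interferon response elements, occurred in 3.72% of all and in 15 of 32 of the type I interferon list (46.9%). TGATGNAA, the core of the composite element bound by ATF4, occurred in 2.53% of all and in 8 of 21 of the stress response list (38.1%). CACGTG, the E-box core, occurred in 12.3% of all and in 13 of 40 of the lysosomal list (32.5%). Among all promoters found for falls of at most -1 the TEAD letters occurred in 14.4% and the ATF4 core in 11.2%, and among those for rises of at least 1 they occurred in 17.3% and 3.57%. The interferon letters occurred in 11.5% of the promoters of those rises and 5.32% of those falls, and the E-box in 12.1% and 12.2%. The lists hold genes already known as targets of these factors. A match describes these letters and is neither a binding site nor a cause.

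Interferon-stimulated genes had the largest rises. Type I interferons act through STAT and IRF factors to switch on genes that block viruses, and no interferon treatment is labelled in these samples. Isg15, whose product is a ubiquitin-like modifier, stood at 10.3, 9.93 and 9.4 FPKM with shCTRL and 141, 129 and 145 with shYap-2. Every knockdown library exceeded every control many times over (3.68, SE 0.0534, adjusted p = 6.64e-10). Ifit1, whose product binds viral RNA, went from near silence, with 0.57, 0.42 and 0.5 FPKM with shCTRL and 18.7, 18.3 and 20.3 with shYap-2. The groups were far apart, at 3.75. Rtp4, a further interferon-induced gene, had 2.18, 2.24 and 2.72 FPKM with shCTRL and 29.1, 26.7 and 31.2 with shYap-2 (3.15).

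In the type I interferon list 43 of 44 tested members rose (median 1.98), 37 of them by at least 1, and Ifit2 was not called (-0.19). Of 15 listed interferon-inducible GTPase genes 12 were tested and all 12 rose (median 1.87), Igtp most, by 2.94. Members under 1 FPKM in every control, such as Irgm2 here and Ifit1 above, passed the filter only through the shYap-2 libraries. That they rose follows from the filter, so the counts of both lists are partly set by it. Irgm1, whose product acts in vacuole and autophagy control, had 8.87, 8.27 and 7.9 FPKM with shCTRL and 30.4, 31.8 and 29.6 with shYap-2. No control reached the knockdown libraries (1.76). All 17 genes of MHC class I presentation rose (median 1.10), with Canx lowest at 0.20. Fitting the 9 libraries together ended the Canx call. B2m, the light chain, had 295, 277 and 274 FPKM with shCTRL and 623, 601 and 647 with shYap-2 (1.14).

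Some rises of at least 1 lay near one another in the genome. In 16 stretches at least 4 such genes lay with gaps of at most 200000 bases between them, often with other tested genes among them, and falls of at most -1 formed 0 such stretches. There were 659 such rises and only 225 such falls, so the 2 counts of stretches cannot be compared directly. At chr5:120730333-120907521 (GRCm38) all 6 tested genes, Oas2, Oas3, Oas1c, Oas1b, Oas1g and Oas1a, rose, Oas1a most, by 3.56. All but Oas1a were under 1 FPKM in every control and passed the filter only through the shYap-2 libraries, so that they rose follows from the filter. At chr7:104218793-104465193 the 5 tested genes were Trim family members, between 1.09 and 1.95. The longest stretch, chr17:33685692-34201454, held 7 such rises among 26 tested genes, including H2-DMa, which acts in peptide loading of MHC class II. A stretch with mixed roles was chr11:100694884-101077672, where 6 of 10 tested genes rose by at least 1: the RNA sensor gene Dhx58, the transcription factor genes Stat3 and Stat5a, the proton pump gene Atp6v0a1, the lysosomal enzyme gene Naglu, and Ghdc. Close copies such as the Oas1 genes may share reads, and how the authors' counting split them is not given.

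Genes of the lysosome rose as a group. Lysosomal hydrolases break down protein, lipid and sugar in a compartment that the V-ATPase acidifies, and autophagy delivers cell contents to it. Of 53 listed lysosomal genes 50 were tested, of which 45 rose, 2 fell and 3 were not called (median 0.85 beside 0.08). Grn, encoding progranulin, had 74.2, 80.9 and 87.1 FPKM with shCTRL and 279.8, 280.2 and 286 with shYap-2. Knockdown libraries were more than any control and close to each other (1.80, SE 0.0525, adjusted p = 1.13e-08). Ctsd, the aspartic protease cathepsin D whose promoter is printed above, had 111, 115 and 116 FPKM with shCTRL and 325, 327 and 328 with shYap-2. These groups did not overlap, at 1.52. Psap, the precursor of the sphingolipid activators, stood at 162, 164 and 166 FPKM with shCTRL and 398, 399 and 408 with shYap-2 (1.29). The 2 members that fell were Lipa, the acid lipase (-0.69), and Cd68 (-0.67), a gene best known from macrophages. Asah1 and Idua were among those not called.

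Of 17 V-ATPase subunit genes 16 rose and 1, Atp6v0e2, was not called (median 0.64). The a1 subunit gene Atp6v0a1 had 7.67, 7.81 and 7.83 FPKM with shCTRL and 36.9, 37.5 and 39.1 with shYap-2. All knockdown values were several times the controls (2.15). Atp6v0c, encoding the proton-carrying ring, had 137, 146 and 158 FPKM with shCTRL and 457, 467 and 457 with shYap-2 and was higher by 1.64. Of the cytosolic sector, Atp6v1e1 was higher by 0.89, and Atp6v1a by 0.30.

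Of 38 autophagy genes 30 rose, 2 fell and 6 were not called (median 0.45). Map1lc3b, which encodes a marker protein of the autophagosome membrane, had 82.3, 89.8 and 79.7 FPKM with shCTRL and 183, 186 and 189 with shYap-2. Its groups were separate, at 1.14. Calcoco1, an autophagy receptor gene, was higher by 1.23, and Ulk1 and Becn1, of the initiating complexes, by 0.71 and 0.73. Atg2b (-0.30) and Atg4d (-0.41) fell. Of the MiT/TFE factors that control lysosomal genes, Mitf was higher (0.66), Tfe3 was called higher (0.25) except with the GC trend removed (0.11), and Tfeb was not called (0.20).

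**Figure D2:**
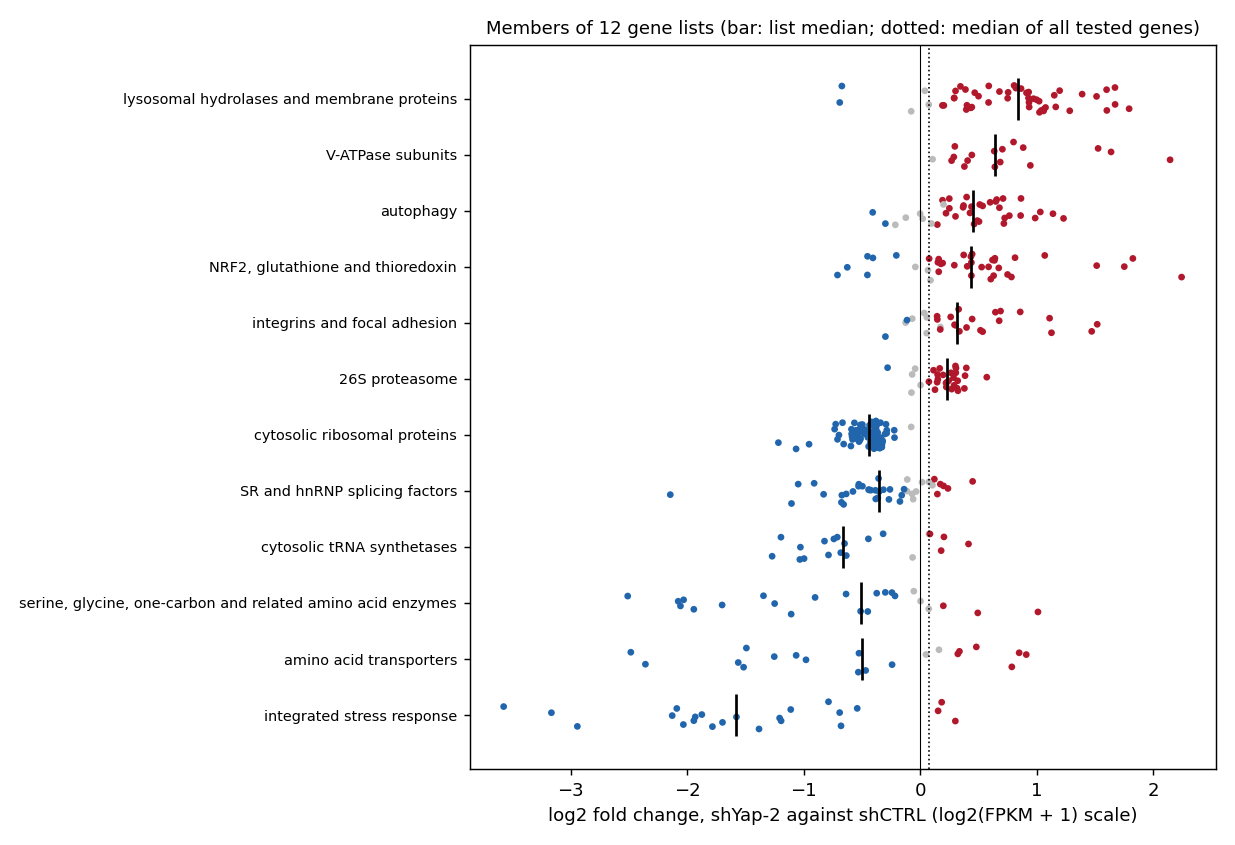
Log2 fold change (horizontal, log2(FPKM + 1) scale) of each tested member of 12 gene lists, with members called higher in red, lower in blue and not called in grey; a black bar is the list median and the dotted line the median of all tested genes, 0.08. The medians run from 0.85 for the lysosomal list to -1.58 for the integrated stress response.

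Iron storage genes rose, and so did most of a list around antioxidant defence. Ferritin stores iron in a shell of heavy and light chains, and NRF2 switches on many genes of glutathione and thioredoxin defence. Ftl1, the ferritin light chain, stood at 1778, 1766 and 1840.4 FPKM with shCTRL and 5136, 5133 and 5139.6 with shYap-2. It had the largest rise in FPKM of all called genes, with groups far apart (1.52, SE 0.0269, adjusted p = 1.45e-09). Fth1, the heavy chain, had 1380.4, 1462 and 1460.3 FPKM with shCTRL and 2419, 2402 and 2422 with shYap-2 (0.75). Both genes have many processed copies, so the split of reads is uncertain. Of 38 tested genes of the NRF2, glutathione and thioredoxin list 29 rose, 6 fell and 3 were not called (median 0.44). Mgst1, a membrane glutathione transferase, had 4.28, 4.29 and 4.67 FPKM with shCTRL and 25.1, 23.8 and 25.1 with shYap-2. No control came near the knockdown values (2.25). Nqo1 (1.83) and Gpx4 (0.59) were higher, as was Txnip (1.75), the gene of a thioredoxin inhibitor. Nqo1 passed the filter only through the shYap-2 libraries, so that it rose follows from the filter. Gclc was among the members that fell, and Gclm was not called. Nfe2l2, which encodes NRF2, was lower (-0.62), as was its inhibitor's gene Keap1 (-0.40).

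Genes of amino acid supply fell. ATF4, made when the integrated stress response is on, switches on amino acid transporters, serine and asparagine synthesis and many tRNA synthetases. Of 23 tested genes of that response 20 fell and 3 rose (median -1.58), 16 of the falls being at most -1. Atf4 itself had 289, 290.4 and 283 FPKM with shCTRL and 83.1, 84.5 and 80.99 with shYap-2. All 3 knockdown libraries were below all controls (-1.78, SE 0.03, adjusted p = 1.24e-09). Chac1, whose product degrades glutathione and whose promoter is printed above, had 77.9, 85.2 and 80.7 FPKM with shCTRL and 8.66, 7.39 and 8.5 with shYap-2. The drop was -3.17 with no overlap. The 3 that rose were the sensor kinase genes Eif2ak3 (0.30), Eif2ak1 (0.19) and Eif2ak4 (0.16), and 2 of these calls ended with trimmed-mean or median-of-ratios scaling or with the GC trend removed, each of which left 1 member higher.

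Among amino acid transporters 12 of 20 tested fell, 6 rose and 2 were not called (median -0.50). Slc6a9, a glycine carrier, had 23.3, 23.4 and 23.5 FPKM with shCTRL and 3.53, 3.24 and 3.33 with shYap-2. Each knockdown value was well under each control (-2.48). Slc7a11, the cystine carrier that feeds glutathione synthesis, had 8.57, 9.02 and 6.86 FPKM with shCTRL and 0.77, 0.69 and 0.87 with shYap-2 (-2.36). Slc7a11 was under 1 FPKM in every shYap-2 library and passed the filter only through the controls, so that it fell follows from the filter. Both chains of the large neutral amino acid carrier were lower, Slc7a5 (-1.49) and Slc3a2 (-1.25). The proton-coupled lysosomal carrier gene Slc36a1 was higher (0.79).

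Of 23 tested enzymes of serine, glycine, one-carbon and related pathways 17 fell and 3 rose (median -0.51). Mthfd2, the mitochondrial folate enzyme, had 147, 156 and 139 FPKM with shCTRL and 34.3, 36.4 and 33.2 with shYap-2. The groups were separate, at -2.06. Gpt2, the mitochondrial alanine transaminase, had 44.9, 48.1 and 43.3 FPKM with shCTRL and 6.96, 6.68 and 7.83 with shYap-2 (-2.51). Pck2, which makes phosphoenolpyruvate in mitochondria, had 56.5, 65.5 and 62.1 FPKM with shCTRL and 9.61, 9.63 and 9.99 with shYap-2 (-2.54). Pycr1 and Aldh18a1, of proline synthesis, were lower (-2.08 and -2.03), while Cbs, of the transsulfuration pathway, was higher by 1.01. Of 20 cytosolic tRNA synthetase genes 14 fell, 4 rose and 2 were not called (median -0.66), with Cars at -1.27, Vars at -1.19 and Farsa highest at 0.42.

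**Figure D3:**
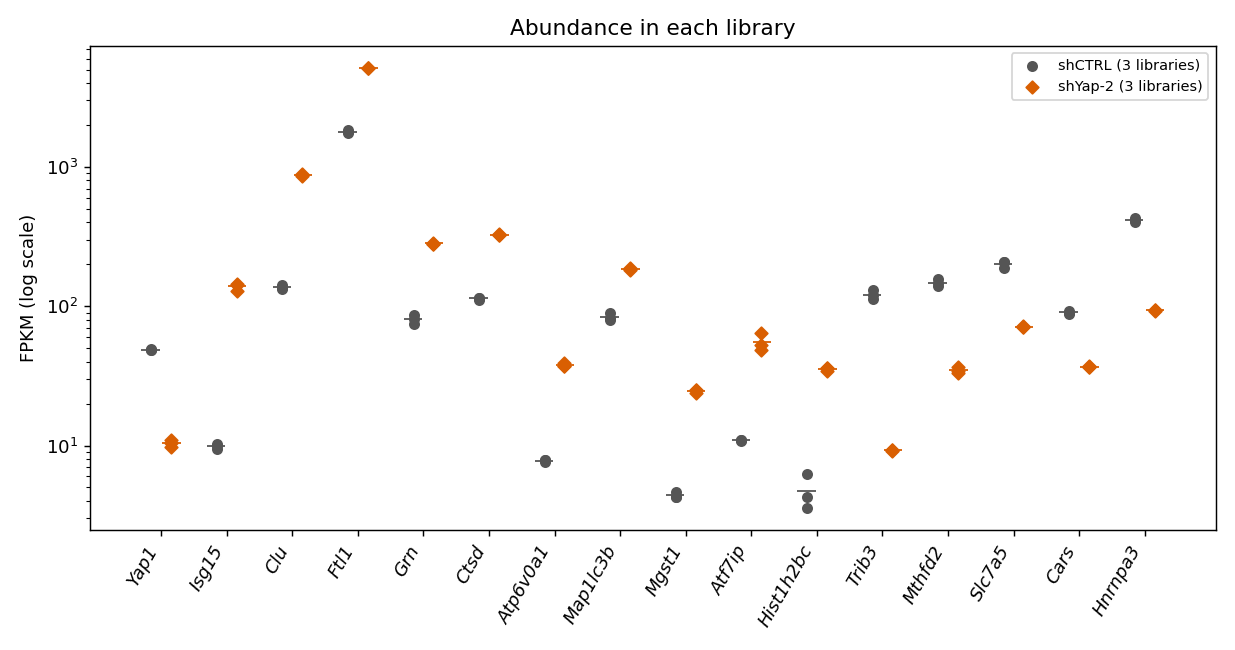
FPKM (vertical, log scale) of 16 genes in each of the 3 shCTRL libraries (grey circles) and 3 shYap-2 libraries (orange diamonds), with short lines at the group means. In none of these genes do the groups overlap: Yap1, Trib3, Mthfd2, Slc7a5, Cars and Hnrnpa3 are lower and the other 10 higher with shYap-2. Named genes were chosen partly by lack of overlap or small adjusted p, so this is partly set by their choice. Of all tested genes, 44.7% lay above the controls without overlap and 31.8% below.

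Nearly all cytosolic ribosomal protein genes and most ribosome biogenesis genes fell. Of 79 cytosolic ribosomal protein genes 78 fell, 0 rose and 1 was not called (median -0.44), and their share of all FPKM went from 18.98 to 19.30% in shCTRL to 14.02 to 14.27% with shYap-2. Rpl12 had 1093, 1113 and 1118 FPKM with shCTRL and 574, 576 and 566 with shYap-2. The knockdown libraries lay below all controls (-0.95). Of 44 ribosome biogenesis genes 31 fell and 3 rose (median -0.34), among them Noc2l (-1.47), Gar1 (-1.24) and Nop56 (-0.84). Npm1, the abundant nucleolar protein gene, had 1995, 1940.1 and 1929 FPKM with shCTRL and 1153, 1139.8 and 1124 with shYap-2 (-0.78). Of 50 translation factors 22 fell and 12 rose (median -0.04). Within them the genes of repressors of the cap-binding protein went opposite ways, Eif4ebp1 by -1.53 and Eif4ebp2 by 1.10. Of 77 mitochondrial ribosomal protein genes 30 rose (39.0%) and 19 fell (24.7%), beside 43.2% and 30.5% of all tested genes. Their median of 0.05 turned to -0.01 under trimmed-mean scaling.

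RNA-binding splicing regulators were lower. Of 41 tested SR and hnRNP genes 27 fell, 6 rose and 8 were not called (median -0.35). Hnrnpa3 stood at 433, 402 and 417 FPKM with shCTRL and 94.5, 93.7 and 92.5 with shYap-2. Its knockdown values were tightly grouped and far under the controls (-2.14, SE 0.0334, adjusted p = 8.51e-10). The related Hnrnpa1 had 769, 781 and 773 FPKM with shCTRL and 364, 363 and 353 with shYap-2 (-1.10). Both have processed copies, so single values are uncertain. Srsf3, whose SR protein acts in splicing and export, fell by 1.05, and Srsf5 was higher by 0.45.

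Genes of cell division were lower. Of 44 mitosis and cytokinesis genes 42 fell, 1 rose (Ccnf, 0.29) and 1 was not called (median -0.46). Anln, the contractile ring scaffold, had 164, 157 and 156 FPKM with shCTRL and 68.4, 69.2 and 65.2 with shYap-2. No knockdown library reached the controls (-1.22). Of 44 genes of DNA replication and nucleotide supply 33 fell and 3 rose (median -0.31), with Pola1, of the priming polymerase, at -1.22. Pcna (-0.07) was not called. Myc, which drives growth genes, had 189.7, 208 and 198 FPKM with shCTRL and 87.9, 83.5 and 86.8 with shYap-2. All knockdown values were lower (-1.20). Mxd4, a repressor that competes with Myc for Max, had 6.15, 5.02 and 6.02 FPKM with shCTRL and 20.7, 20.2 and 19.9 with shYap-2 and was higher by 1.67. The D-type cyclins split: Ccnd1 and Ccnd2 were lower (-0.75 and -0.74) and Ccnd3 was higher (0.96). Of 26 genes of cyclins, CDK inhibitors, E2F and RB 14 rose and 11 fell, or 8 and 12 with either scaling between libraries.

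Histone transcripts moved unevenly. Of 37 tested histone genes 15 rose (40.5%), 5 fell (13.5%) and 17 were not called (median 0.54). Both shares were below the 43.2% and 30.5% of all tested genes. Hist1h2bc had 3.57, 4.29 and 6.2 FPKM with shCTRL and 34.5, 35.9 and 35.9 with shYap-2. These groups did not overlap (2.71, SE 0.138). Hist2h2aa2 had 1.56, 4.52 and 22.7 FPKM with shCTRL and 59.5, 57.1 and 59.4 with shYap-2. Its controls were far apart, with replicate 3 the highest, and its rise of 3.10 has an SE of 0.635 (adjusted p = 0.00173). Replication-dependent histone transcripts lack a poly(A) tail, and their part in these poly(A)-selected libraries was not tested. H1f0, a linker histone gene of resting cells with a polyadenylated transcript, had 466, 445 and 470.3 FPKM with shCTRL and 204, 225 and 202 with shYap-2 and fell by 1.13.

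Adhesion and matrix genes tended upward. Of 28 tested genes of integrins and focal adhesions 20 rose and 2 fell (median 0.32). Itgb5, of the vitronectin receptor, had 45.8, 49.2 and 51.7 FPKM with shCTRL and 104, 107 and 109 with shYap-2. The groups were apart (1.11), and Itgb3 was higher by 1.52. Of 26 matrix genes 17 rose and 5 fell (median 0.28, or 0.08 with the GC trend removed). The laminin chain Lamb3, of hemidesmosomes, was higher by 0.87, and Col7a1, the anchoring fibril collagen, by 1.09. Thbs1, the matricellular protein thrombospondin, had 198, 207 and 217 FPKM with shCTRL and 83.4, 83.6 and 85.4 with shYap-2 and fell by 1.29. Of 20 matrix proteases and inhibitors 13 rose and 4 fell (median 0.37). Mmp11, a secreted protease, had 7.66, 7.38 and 8.1 FPKM with shCTRL and 27.6, 28.3 and 29.1 with shYap-2 (1.75). The metalloprotease genes Adam9 and Adamts1 were lower (-1.56 and -1.84).

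Of 28 actin and myosin genes 19 rose and 5 fell (median 0.34), with Acta2 (1.69) and Tpm2 (1.02) highest. Actb had 1300.0, 1454 and 1717 FPKM with shCTRL and 2239.7, 2258 and 2169.7 with shYap-2. The controls were spread more widely than the knockdown libraries and did not overlap them (0.59). Among 14 keratins 5 rose (35.7%) and 3 fell (21.4%), beside 43.2% and 30.5% of all tested genes. Krt14, a basal cell keratin, had 67.6, 70.3 and 77.7 FPKM with shCTRL and 177, 191 and 189 with shYap-2 (1.36). Krt8, a luminal keratin, was higher by 0.63, and its partner Krt18 fell by 0.09, a call that 3 of 15 alternatives ended. Jup, the junction protein plakoglobin, had 63.5, 67.2 and 70.3 FPKM with shCTRL and 207, 205 and 217 with shYap-2. Knockdown libraries were well above all controls (1.63). Cldn3 was lower (-0.95) and Cldn4 higher (0.42), and Epcam (0.06) and Cdh1 (0.05) were not called.

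Secreted factors went both ways. Of 21 tested chemokine and cytokine genes 13 fell and 8 rose (median -0.52). Cxcl1, which draws neutrophils, had 90.8, 103 and 84.6 FPKM with shCTRL and 15.2, 13.4 and 14.7 with shYap-2. Its knockdown libraries were far under the controls (-2.60). Csf1, the growth factor of macrophages, had 81.3, 76.2 and 75.8 FPKM with shCTRL and 41.1, 41.1 and 41.0 with shYap-2 (-0.90), and Csf3 and Ccl2 were lower (-1.22 and -1.07). Ccl2 passed the filter only through the shCTRL libraries, so that it fell follows from the filter. Ccl20 and Cxcl16, which draw lymphocytes among other cells, were lower (-2.37 and -0.86). Those that rose included Cx3cl1 (1.29) and the interferon-inducible Cxcl10 (1.11) and Ccl5 (1.09), which draw lymphocytes, and Tgfb1 (1.01). Clu, the secreted chaperone clusterin, had 136, 133 and 141 FPKM with shCTRL and 882, 866 and 889.8 with shYap-2. The knockdown libraries were close together and far above the controls (2.68, SE 0.031, adjusted p = 1.61e-10). C3, the central complement protein, had 9.03, 9.04 and 9.85 FPKM with shCTRL and 30.8, 30.6 and 32.7 with shYap-2 (1.65). Among serpins 7 of 10 tested rose and 1 fell (median 0.96), the granzyme inhibitor gene Serpinb9 by 1.39 and the related Serpinb9b by 3.09.

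Hypoxia and glycolysis genes were mainly lower. Of 26 tested hypoxia response genes 19 fell and 4 rose (median -0.61). Vegfa, the angiogenic factor, had 16.3, 17.7 and 15.04 FPKM with shCTRL and 2.32, 2.61 and 2.23 with shYap-2. The groups were separate (-2.36), and Hif1a was not called (-0.13). Of 28 genes of glycolysis and the pentose phosphate pathway 15 fell and 10 rose (median -0.22). Gapdh, often used as a reference gene, had 3831, 4119.6 and 4394 FPKM with shCTRL and 2580.1, 2647 and 2554 with shYap-2 and fell by 0.66. G6pdx, the first enzyme of the pentose phosphate pathway, had 38.5, 40.2 and 40.97 FPKM with shCTRL and 83.9, 80.03 and 83.03 with shYap-2 and was higher by 1.03. Of 75 nuclear respiratory chain genes 43 rose and 9 fell (median 0.19), or 28 and 18 with the GC trend removed (median 0.05). Of 34 sterol and fatty acid genes 21 fell and 8 rose (median -0.26). Fads1, a fatty acid desaturase, had 33.9, 33.6 and 34.6 FPKM with shCTRL and 9.01, 8.38 and 8.78 with shYap-2 (-1.85).

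Protein folding and breakdown genes were divided. Of 31 genes of the 26S proteasome 26 rose and 1 fell, the rises reaching 0.57 at most (median 0.23), or 20 and 4 with median-of-ratios scaling. Psmd4, a ubiquitin receptor subunit, had 155, 169 and 172 FPKM with shCTRL and 244, 255 and 240.0 with shYap-2 (0.57). Of 30 genes of endoplasmic reticulum chaperones and degradation 20 rose and 7 fell (median 0.21). Calr, calreticulin, had 158, 159 and 163 FPKM with shCTRL and 384, 390.2 and 389.9 with shYap-2. Its values were above all controls (1.27), whereas Herpud1, a degradation factor, had 68.8, 68.2 and 62.3 FPKM with shCTRL and 17.5, 16.2 and 16.8 with shYap-2 and fell by 1.92. Of 31 other chaperones 8 rose and 15 fell (median -0.09), with the mitochondrial Hspa9 (-0.76) and Hspd1 (-0.67) lower and Bag3 (0.92) and Dnajb4 (1.15) higher.

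Cell death genes leaned upward. Of 35 tested genes of the BCL2 family, death receptors and caspases 21 rose and 9 fell (median 0.42, or 0.18 with the GC trend removed). Casp1, the inflammasome protease, had 0.71, 0.53 and 0.49 FPKM with shCTRL and 5.15, 5.23 and 5.17 with shYap-2. The controls were all under 1 FPKM and the knockdown libraries all above 5 (1.97). Casp1 thus passed the filter only through the shYap-2 libraries, so that it rose follows from the filter. The death receptor gene Fas was higher by 1.51, and the survival gene Bcl2 was lower (-0.71). Bbc3, a p53-induced killer, fell by 1.01.

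Regulators of chromatin and rhythm held single large changes. Of 24 chromatin silencing genes 13 fell and 6 rose (median -0.19). Atf7ip, a partner of the histone methyltransferase SETDB1, was the exception in size, with 11.04, 10.8 and 11.01 FPKM with shCTRL and 52.5, 48.8 and 64.03 with shYap-2. Replicate 3 was the highest of the knockdown libraries, and all lay far above the controls (2.22, SE 0.0864, adjusted p = 4.92e-08). Setdb1 itself was higher by 0.19. Of 19 clock genes 8 fell and 6 rose (median -0.07). Ciart, a repressor of the clock, had 39.9, 39.8 and 33.8 FPKM with shCTRL and 5.5, 6.15 and 4.86 with shYap-2. The groups did not overlap (-2.58), and the clock repressors Nfil3 and Bhlhe40 were lower (-1.21 and -0.95). Id2, which blocks basic helix-loop-helix factors, had 1.77, 1.78 and 1.66 FPKM with shCTRL and 7.91, 6.35 and 6.8 with shYap-2 (1.55). Of 277 Zfp zinc finger genes 97 fell (35.0%) and 48 rose (17.3%), beside 30.5% and 43.2% of all tested genes (median -0.11).

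**Figure D4:**
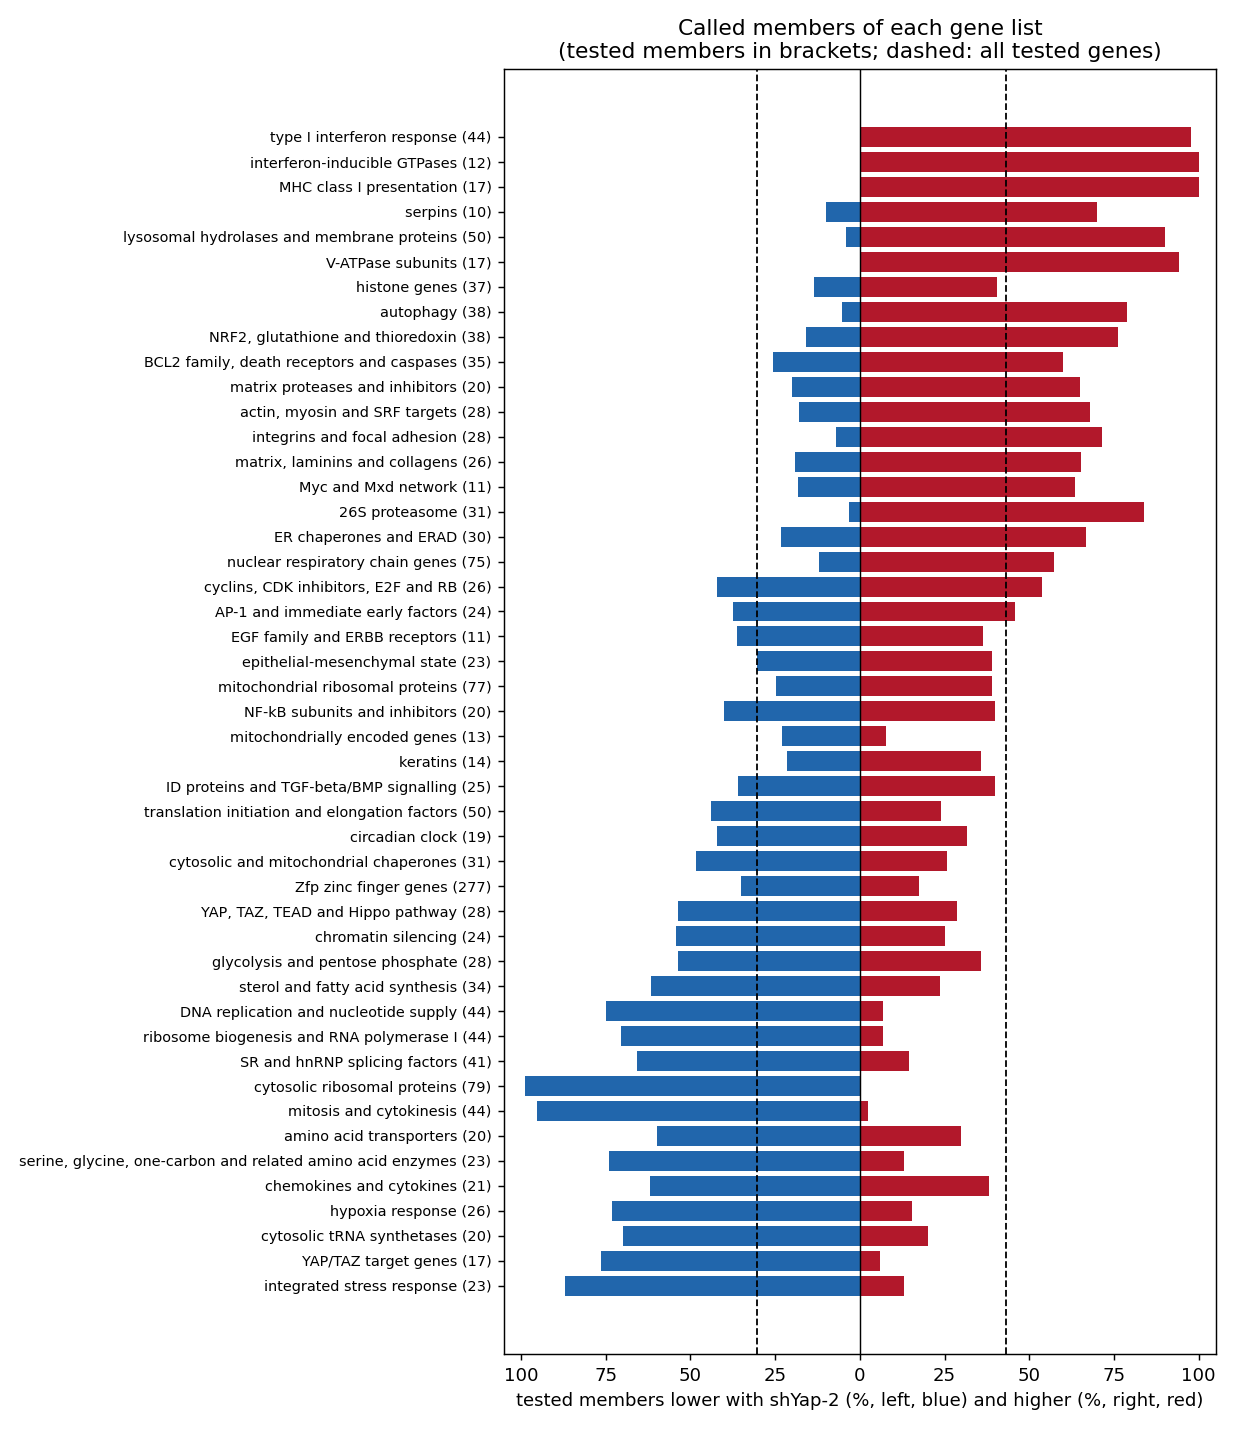
Percentage of tested members called higher (red, right) and lower (blue, left) with shYap-2. Shown are gene lists of at least 10 tested members, without the cell type markers, ordered by median log2 fold change. Dashed lines are at the 43.2% and 30.5% of all tested genes. Interferon, MHC class I, lysosomal and V-ATPase lists reach 90.0% or more to the right, and ribosomal protein and mitosis lists 95.5% or more to the left.

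Some genes were nearly silent in the controls, and these passed the filter only through the shYap-2 libraries, so that they rose follows from how they were chosen. With a mean under 0.5 FPKM in shCTRL and of at least 5 with shYap-2, besides interferon genes, were Serpinb9b, Csn3 and Cspg5 among those with names. Csn3, the milk protein kappa-casein, had 0.29, 0.55 and 0.33 FPKM with shCTRL and 7.58, 9.18 and 7.55 with shYap-2. Cspg5, a chondroitin sulfate proteoglycan of nervous tissue, had 0.35, 0.5 and 0.43 FPKM with shCTRL and 10.2, 10.03 and 9.32 with shYap-2. Both were at a fraction of 1 FPKM in every control (2.71 and 2.93). Other genes under 1 FPKM in every control also passed only through shYap-2, among them Casp1, Ifit1, Irgm2, Acta2, Itgb3, Cbs and Nqo1. Slc7a11 and Ccl2, in turn, passed only through the controls, so that they fell follows from the filter. Aox1, an aldehyde oxidase gene, had 1.06, 0.91 and 1.16 FPKM with shCTRL and 15.6, 15.5 and 16.01 with shYap-2, a rise of 3.03. No gene had a mean under 0.5 FPKM with shYap-2 and of at least 5 in shCTRL. Adk, adenosine kinase, was among the large falls from a clear level, with 40.95, 38.8 and 40.9 FPKM with shCTRL and 8.35, 7.8 and 8.55 with shYap-2 (-2.16).

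Rises were more frequent among GC-rich transcripts. From the lowest to the highest quintile of transcript GC content the median log2 fold change was -0.06, -0.01, 0.08, 0.18 and 0.24, and the share of genes called higher went from 29.0% to 55.8%. When the GC trend was removed from each library, the 5 medians lay between 0.00 and 0.01, 3992 genes rose and 3886 fell. Of the genes called before, 3829 rises and 3137 falls remained, 26 rises became falls and 0 falls became rises. All 659 rises of at least 1 and all 225 falls of at most -1 remained called. The part of GC content in the small differences was not tested further.

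**Figure D5:**
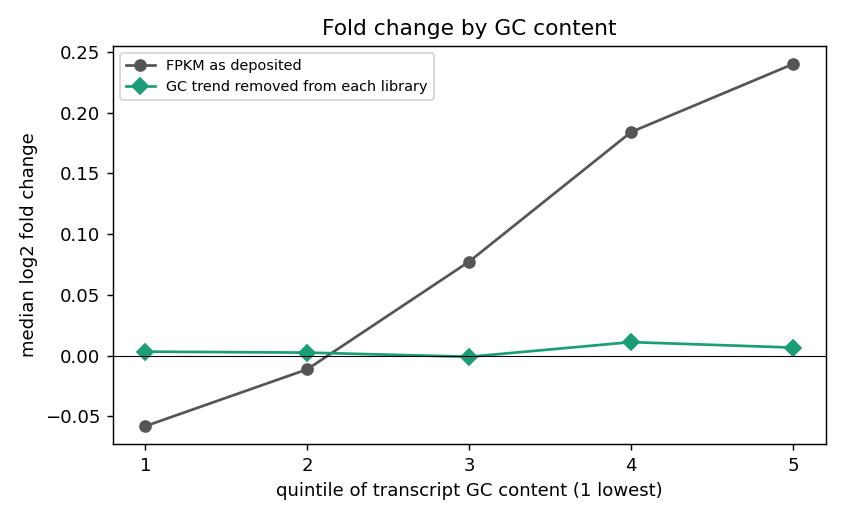
Median log2 fold change (vertical, log2(FPKM + 1) scale) of genes in 5 quintiles of transcript GC content (horizontal, 1 lowest), for the FPKM as deposited (grey circles) and after removal of the GC trend from each library (green diamonds). The deposited values climb from -0.06 to 0.24 and the detrended ones stay between 0.00 and 0.01.

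At the filter, Tert, Itga2b and Fgf11 were just inside, reaching 1.00 FPKM in 3 libraries, and Kantr, Arhgef4 and Rnft2 just outside, where 3 libraries reached 0.99.

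The other hairpin, shYap-1, shares the 3 control libraries, so its changes are set beside those of shYap-2 without a test of likeness. A direct test of shYap-2 against shYap-1, in 1 fit of all 9 libraries, called 207 genes higher with shYap-2 (1.93%) and 146 lower (1.36%) of 10733. These counts depended on single libraries. They were 886 and 760 without shYap-1 replicate 2, 56 and 24 without shYap-1 replicate 3 and 119 and 77 without shYap-1 replicate 1. Leaving out shYap-2 replicate 1 left 2 and 1, and leaving out shYap-2 replicate 2 or 3 left 1 and 0. Without a shCTRL library they were 106 to 117 and 73 to 86. With the 6 knockdown libraries alone limma called 0 and 0, and 1757 genes had an unadjusted p under 0.05.

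Atf7ip had the largest difference, with 28.9, 18.5 and 28.9 FPKM with shYap-1. The 3 shYap-2 libraries, given above, were all higher (shYap-2 minus shYap-1 1.10, adjusted p = 0.0108, called under 14 of 18 alternatives). Some genes that rose with both hairpins were lower with shYap-2. Serpinb9b had 19.1, 16.02 and 18.2 FPKM with shYap-1 beside 10.3, 10.9 and 10.6 with shYap-2 (-0.69, adjusted p = 0.00846). Ifit3b differed by -0.66 and Ifit3 by -0.65. Tfap4, a Myc-induced transcription factor gene that fell with both, had 7.8, 7.03 and 6.76 FPKM with shYap-1 beside 10.4, 10.7 and 11.6 with shYap-2 (0.54, adjusted p = 0.00894). Ctsd of the lysosome (-0.33) was lower with shYap-2 than with shYap-1, and Mthfd2 (0.33) higher. Yap1 itself stood at 8.03, 9.05 and 9.23 FPKM with shYap-1, a difference of 0.22 (adjusted p = 0.0992).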

How the data were processed

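Per the labels' protocols, RNA was extracted in Trizol and selected on oligo(dT) beads. Libraries were made with NEBNext Ultra reagents, and the sequencer was a Novaseq6000. The authors deposited gene values as FPKM, in a table for each hairpin. The submitters' processing notes list HISAT2 2.1.0, fastp 0.18.0, RSEM, StringTie 1.3.4 and the build mm10. Annotation and use of strand are not given in the sources used here. In both tables the shCTRL values were identical. Symbols, GC content, lengths and GRCm38 positions came from GENCODE vM21 for 16348 of 16358 genes. Depth was estimated as the value at which FPKM times length gave whole fragments in low genes with 1 transcript, within 0.15 fragments for 77.4 to 82.0% of them, and covers counting error only.

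Genes with FPKM of at least 1 in 3 or more libraries were fitted on log2(FPKM + 1) with limma 3.58.1 (R 4.3.3, lmFit, eBayes with trend), with Benjamini-Hochberg adjustment and a threshold of 0.05, without scaling between libraries. shYap-2 against shYap-1 came from a fit of all 9 libraries. The fits were run on simulated data with independent noise, equal spread in all groups and few changed genes. Such data cannot speak to effects of whole libraries or to changes in most genes. Same-numbered replicates of shCTRL and shYap-2 did not deviate together (correlations 0.024, -0.005 and -0.013), so their fit has no replicate block. The fit of all 9 libraries has none either, though shYap-1 was not in that check. There a block changed the 207 and 146 hairpin calls to 86 and 55.

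Named genes were Yap1 and Wwtr1, the 15 largest rises and falls without overlap and with the higher group's mean FPKM at 5 or more, the 10 largest changes in FPKM each way, up to 4 members of each of 51 gene lists with the smallest adjusted p, the 5 largest hairpin differences each way, genes nearly silent in 1 group, and abundant genes with a log2 fold change of at least 1 in size. Further list members are named to show a list's range, with their values in view. Some genes are not reported here. The members and lists were chosen with earlier results of these data known. Alternatives were trimmed-mean or median-of-ratios scaling, leaving out each library, a replicate block, no trend, a filter at FPKM 5, no filter, a pseudocount of 0.1, all 9 libraries in 1 fit or the 6 knockdown libraries alone, a size threshold of 1 and, chosen after seeing the data, removal of the GC trend. Other software was pandas 2.3.3, numpy 2.4.6, matplotlib 3.10.9 and Python 3.11.15.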

Additional observations from a re-analysis of the deposited data

Results flagged for a closer look

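The effects of the hairpins differed, by the test of shYap-2 minus shYap-1 in the fit of all 9 libraries (limma, Benjamini-Hochberg adjusted p under 0.05), in 57 of the 233 named genes, beside 1.93% called higher and 1.36% lower of all 10733 genes. The named genes include the 5 largest hairpin differences each way, so this count is partly set by their choice, and none of the 57 was called under more than 14 of 18 alternatives. Values are that difference on the log2(FPKM + 1) scale, and all rest on the dependence on single libraries given above. Genes that rose against shCTRL and were lower with shYap-2 than with shYap-1 included 17 genes of interferon response, antigen presentation and granzyme inhibition: Serpinb9b (-0.69), Ifit3b (-0.66), Ifit3 (-0.65), Usp18 (-0.62), Ifit1 (-0.57), Oas1a (-0.56), Gbp7 (-0.55), Oas3 (-0.53), Xaf1 (-0.52), Irf7 (-0.51), Isg15 (-0.51), Igtp (-0.49), Oasl2 (-0.47), Zbp1 (-0.43), Irgm2 (-0.41), Irgm1 (-0.38) and H2-DMa (-0.29). In the lysosomal and V-ATPase lists they included Ctsd (-0.33), Atp6v0d1 (-0.30), Atp6v0a1 (-0.26) and Psap (-0.24). Others of this kind were Pqlc2 (-0.57), Mxd4 (-0.49), Mgst1 (-0.44), Krt14 (-0.43), Id2 (-0.42), Os9 (-0.26), Mrps18a (-0.26) and Clu (-0.26). Genes that fell against shCTRL and were higher with shYap-2 than with shYap-1 included 11 genes of cell division, DNA replication and its repair or methylation: Cit (0.60), Usp1 (0.58), Anln (0.44), Ccna2 (0.40), Bub1b (0.40), Ube2c (0.33), Mcm6 (0.32), Rrm2 (0.32), Dnmt1 (0.29), Prc1 (0.26) and Ccnd1 (0.26). The others were Diexf (0.68), Tfap4 (0.54), Fads1 (0.52), Fads2 (0.50), Adamts1 (0.44), Noc2l (0.44), Hmga1b (0.43), Psat1 (0.42), Hnrnpa1 (0.41), Fdps (0.38), Nop56 (0.35), Mthfd2 (0.33) and Hnrnpll (0.27). Genes that rose against shCTRL and were higher with shYap-2 were Atf7ip (1.10) and Mmp3 (0.33). In all, 26 of the 57 differences were higher and 31 lower with shYap-2.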

How the results depend on the processing

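For shYap-2 against shCTRL, the counts of 4586 higher and 3237 lower genes stayed within 1.5 times of themselves under all alternatives except the size threshold, which left 659 and 225. Without each library in turn they were 4084 to 4540 and 2978 to 3167. With trimmed-mean scaling they were 4068 and 3707, with median-of-ratios scaling 4017 and 3767, and with the GC trend removed 3992 and 3886, so calls higher with shYap-2 made up 58.6% of all calls as reported and 52.3%, 51.6% and 50.7% in these. The replicate block gave 4566 and 3242 with shCTRL, and same-numbered libraries are not paired by the labels. For shYap-2 against shYap-1 the counts of 207 and 146 became 86 and 55 with the replicate block, 616 and 561 with the GC trend removed, 0 and 0 with the 6 knockdown libraries alone, and 1 and 0 at the size threshold, and ranged from 1 to 886 and from 0 to 760 without each library in turn. The cause of these changes was not tested. Of 3449 combinations of 233 named genes and alternatives against shCTRL, 3438 kept their direction and side of the threshold, and 11 lost the call, all of the mitochondrially encoded mt-Co3, mt-Nd5, mt-Cytb and mt-Nd6. For the 57 named genes called between hairpins, 381 of 1026 combinations lost the call and none changed sign. Of 76 further genes named in the text, 62 were called, 52 of these under every alternative in which they were tested (9 to 15 each, since not all genes entered each one). Among the 62 called genes the sign turned only for Tead4, from 0.19 to -0.047 with the GC trend removed. Some genes that were not called changed sign, such as Arhgef17 (0.11, lowest alternative -0.12) and Epcam (0.06, lowest alternative -0.095). Medians of the NF-kB, keratin, epithelial-mesenchymal, mitochondrial ribosomal and mitochondrially encoded lists, and of epithelial markers, changed sign under either scaling. The values are FPKM with depth known only by estimate, so no count test was run.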
